A study of Mus musculus with 18 samples.

Results

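The genes described here are 10 members of the Wnt pathway, namely the ligands *Wnt5a*, *Wnt7a* and *Wnt7b*, the receptor *Fzd1*, the nuclear factors *Lef1* and *Tcf7*, the feedback targets *Axin2* and *Nkd1*, the secreted inhibitor *Sfrp1*, and *Dkk3* of the Dickkopf family. They were taken by name, with earlier results of these data known, and are 10 of the 54838 genes in the count table. RNA was sequenced from 18 mouse cultures in 6 conditions with 3 replicates each. Neurospheres (NSPs), floating cultures of neural stem cells, were grown from the ventricular zone of C57BL/6J embryos, with each wild-type brain taken singly at embryonic day 14, and proliferated with EGF at 20 ng/ml. The other cultures were differentiated towards astrocytes on coated plates in medium with 10% serum. They were kept there for 24 h or 72 h in the absence or presence of the inflammatory cytokine TNF (50 ng/ml), or for 1 week in its absence. NSPs and differentiated cells therefore differed in time, in EGF and in serum at once, and these cannot be told apart, whereas the TNF comparisons at 24 h and 72 h were between cultures in the same medium. The labels do not say which replicates came from separate brains, so the p-values measure only the spread between these cultures.

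Wnt proteins are secreted ligands that bind Frizzled receptors such as FZD1. In the canonical branch, this binding stabilises β-catenin, which enters the nucleus and acts with DNA-binding partners of the TCF/LEF family, including LEF1 and TCF1 (the product of *Tcf7*). Among the genes this branch is known to switch on are its own brakes. AXIN2 is a scaffold of the complex that destroys β-catenin, and NKD1 binds Dishevelled. SFRP1 binds ligands outside the cell, and DKK3 is a divergent Dickkopf protein. WNT7A and WNT7B are known as canonical ligands in the embryonic central nervous system, where Wnt signals act on neural stem cells and on brain vessels, and WNT5A is best known for signalling without β-catenin.

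Windows upstream of member genes are shown because β-catenin acts through DNA: *Axin2* and *Nkd1*, the feedback targets that both fell on differentiation, *Lef1*, the TCF/LEF family member that was lower by 1 week, and *Fzd1*, the receptor. Each is the 250 bases before a RefSeq transcription start on GRCm38.p6, written 5′ to 3′ in the direction of the gene, with the short TCF/LEF core letters CTTTG on either strand in capitals.
*Axin2* (chr11:108920099-108920348, plus strand): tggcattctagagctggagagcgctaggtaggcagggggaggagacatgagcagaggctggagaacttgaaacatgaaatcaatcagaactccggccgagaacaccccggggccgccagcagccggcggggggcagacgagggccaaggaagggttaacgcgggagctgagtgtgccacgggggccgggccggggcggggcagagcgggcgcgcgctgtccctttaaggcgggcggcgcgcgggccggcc
*Nkd1* (chr8:88527383-88527632, plus strand): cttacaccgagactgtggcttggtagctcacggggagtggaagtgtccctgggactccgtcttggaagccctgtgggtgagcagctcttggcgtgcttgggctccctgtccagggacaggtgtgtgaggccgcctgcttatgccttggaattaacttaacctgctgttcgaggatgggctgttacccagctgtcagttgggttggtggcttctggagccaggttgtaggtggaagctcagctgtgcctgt
*Lef1* (chr3:131110047-131110296, plus strand): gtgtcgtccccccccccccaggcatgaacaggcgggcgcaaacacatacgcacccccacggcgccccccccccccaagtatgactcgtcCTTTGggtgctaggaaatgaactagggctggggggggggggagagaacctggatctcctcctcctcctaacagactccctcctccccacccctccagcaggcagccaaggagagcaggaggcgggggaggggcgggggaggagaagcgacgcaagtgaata
*Fzd1* (chr5:4758217-4758466, minus strand): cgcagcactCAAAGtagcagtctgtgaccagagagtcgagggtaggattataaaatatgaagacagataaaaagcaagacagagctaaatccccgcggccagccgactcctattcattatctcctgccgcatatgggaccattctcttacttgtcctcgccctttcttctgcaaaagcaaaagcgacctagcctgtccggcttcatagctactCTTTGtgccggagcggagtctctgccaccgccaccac
The windows of *Axin2* and *Nkd1* held no match, the *Lef1* window held 1 and the *Fzd1* window held 2. *Lef1* has 4 RefSeq windows, of which the most upstream is shown. The others held 2, 1 and 3 matches, and the first 2 windows overlap and share a match. The *Nkd1* window lies inside the longer GENCODE gene model (chr8:88521354-88594884), upstream of the RefSeq start. RefSeq windows were found for 6 of the 10 members, and a window of 2 of these genes, *Lef1* and *Fzd1*, held the letters, beside 52.2% of all 27025 genes with windows (48.6% of their 32851 windows). A match of 5 letters is a description of the sequence and not a binding site.

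Total counts per library ranged from 12509693 to 22549627. Replicate 1 of the NSPs, of 24 h with TNF and of 72 h with TNF stood apart from the other replicates of its condition, with chi-square values per degree of freedom of 40.5 to 55.4 against them, whereas replicates 2 and 3 of those conditions differed by 3.71 to 11.1. Without these 3 libraries, 8 members instead of 7 were called at 72 h against NSPs, 5 instead of 2 between 72 h and 1 week and 4 instead of 2 with TNF at 24 h, and those added are named below. *Dkk3*, which the filter on low counts removed from the fit to all 18 libraries, entered this fit as a 10th member and was not called in it. This alternative was chosen after the data were seen. None of the libraries left out is in the comparisons among untreated 24 h, 72 h and 1 week. There the differences hardly moved and the standard errors fell, as for *Fzd1* between 24 h and 72 h (-0.62 and -0.61, standard errors 0.22 and 0.12). Marker levels moved with the conditions as well. The 9 astrocyte markers summed to 5130 to 5360 CPM (counts relative to library size) in NSPs, 5700 to 8150 CPM at 72 h and 2680 to 3250 CPM at 1 week, the lowest of all conditions. *Gfap* peaked at 72 h (mean 2430 CPM) and was back at 63.4 CPM at 1 week (1.22 on the log2 scale against NSPs, adjusted p = 0.0684), *S100b*, *Aldoc*, *Aldh1l1*, *Slc1a2* and *Slc1a3* were lower at 1 week than in NSPs (-3.07, -2.16, -1.86, -0.66 and -0.56, all past the threshold), and *Gjb6* averaged under 1 CPM. Of the 8 astrocyte markers tested, 5 were thus lower at 1 week than in NSPs. Without TNF, 4 proliferation genes summed to 1320 to 2130 CPM in NSPs, at most 98.7 CPM at 24 h and at most 14.7 CPM at 72 h, and with TNF at 72 h they summed to 25.4 CPM in replicate 1 and to 9.57 and 11.5 CPM in the others. The 5 mural-cell markers went from 3.95 to 10.8 CPM in NSPs to 403 to 496 CPM at 24 h, nearly all of it *Acta2* (6.25 ± 0.65, adjusted p = 3.53e-07), with *Pdgfrb*, *Des* and *Kcnj8* under 1 CPM on average. The 4 ependymal markers went from 19.5 to 33.6 CPM in NSPs to 231 to 323 CPM at 72 h, with *Foxj1* higher (3.28 ± 0.22, adjusted p = 6.29e-10), and the 6 oligodendrocyte-lineage genes from 81.9 to 183 CPM to 14.5 to 18.8 CPM, with *Cspg4* lower (-3.64 ± 0.43, adjusted p = 9.91e-07). The 6 neural stem cell markers summed to 5510 to 6950 CPM in NSPs and 3120 to 4130 CPM at 1 week, with *Hes5* and *Fabp7* lower at 24 h (-3.23 and -1.0), 72 h (-7.56 and -2.79) and 1 week (-9.52 and -3.51, all past the threshold). The other genes of that list did not move as one, as *Vim* was higher at 24 h and 72 h (0.56 and 0.69, adjusted p = 0.00415 and 0.000638), *Prom1* was higher at 72 h (2.45, adjusted p = 0.00584), *Sox2* was lower at 24 h and 1 week (-0.66 and -0.46, adjusted p = 0.00287 and 0.0252) and *Nes* was lower at 24 h (-0.83, adjusted p = 0.0202), with none of these 4 called at the remaining times. The 6 neuronal markers summed to 1440 to 2090 CPM, nearly all of it *Map2*, which was not called at 1 week against NSPs (0.09 ± 0.12, adjusted p = 0.555). *Tubb3* (-1.96), *Rbfox3* (-1.87) and *Snap25* (-3.36) were lower there, and *Dcx* went from 1.46 to 7.14 CPM in NSPs to 0 counts in all 3 libraries. *Syt1* was not called at 1 week (0.55, adjusted p = 0.194) and was higher at 24 h against NSPs (1.04, adjusted p = 0.0208). The part of these lists in the members' changes was not tested. Microglial (1.56 CPM at most), fibroblast (2.54 CPM at most) and endothelial (6.87 CPM at most) markers were near 0 throughout, although the endothelial gene *Kdr* was lower with TNF at 72 h (-2.27 ± 0.46, adjusted p = 0.00318). TNF-treated cultures carried the cytokine's known early response, as *Nfkbia*, the NF-κB inhibitor gene, was higher at both times (log2 fold change 2.44 ± 0.17 (SE) at 24 h and 2.80 ± 0.17 at 72 h, adjusted p = 6.87e-08 and 1.2e-08, edgeR).

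Of the 10 members, 9 passed the filter on low counts and were tested, and *Dkk3* did not pass it. At 24 h, 6 of the 9 differed from NSPs, 2 higher and 4 lower, where 52.7% of all 20067 tested genes were called. At 72 h, 7 differed from NSPs (3 higher, 4 lower; 55.3% of all genes), and at 1 week 7 (3 higher, 4 lower; 58.6% of all genes). Most genes were called in these comparisons, so a call there does not set a member apart. Between 24 h and 72 h 7 members changed, 2 higher and 5 lower, where 24.8% of all genes were called, and between 72 h and 1 week 2 changed, 1 in each direction, where 6.63% were called. The median log2 fold change of the tested members was -0.29 at 24 h, -0.58 at 72 h and -0.27 at 1 week against NSPs, where the medians over all genes were 0.06, 0.05 and 0.06.

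**Figure D1:**
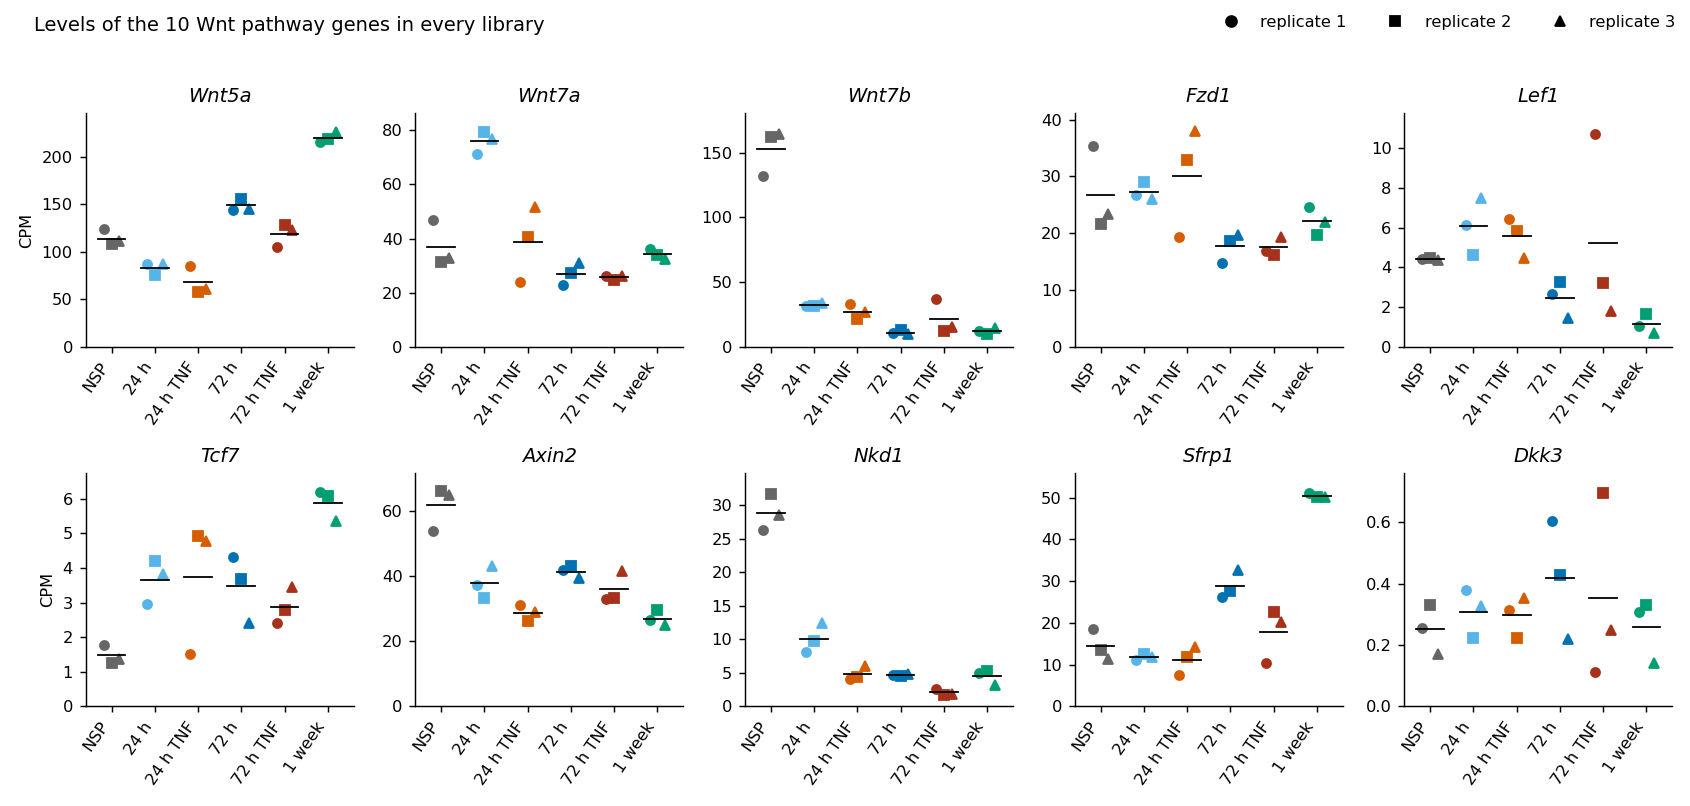
Level of each of the 10 genes in every library, in CPM on linear axes that start at 0 and differ between panels. Points are single libraries (shape gives the replicate number), the bar is the mean of 3, and colours mark the 6 conditions. *Wnt7b* and *Nkd1* are highest in NSPs, *Wnt7a* at 24 h without TNF, and *Wnt5a*, *Tcf7* and *Sfrp1* at 1 week.

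*Wnt7b* had the largest change of the members (ENSMUSG00000022382, chr15:85535437-85582473, minus strand, GRCm38). The 3 NSP libraries held 132, 162 and 164 CPM, the 24 h libraries 31.1, 31.6 and 33.7 CPM, the 72 h libraries 10.3, 12.9 and 9.80 CPM, and the 1 week libraries 12.3, 9.70 and 14.2 CPM. Every NSP library was above every differentiated one, and 72 h and 1 week overlapped. Against NSPs the level fell 4.76-fold at 24 h (log2 fold change -2.25 ± 0.29, adjusted p = 4.5e-06), 13.9-fold at 72 h (-3.79 ± 0.31, adjusted p = 9.23e-09) and 12.7-fold at 1 week (-3.66 ± 0.31, adjusted p = 1.16e-08). Here and below, values after ± are standard errors for log2 fold changes and SDs over 3 libraries for levels, and adjusted p-values are from edgeR's quasi-likelihood test with Benjamini-Hochberg correction over all tested genes. It fell further between 24 h and 72 h (-1.54 ± 0.30, adjusted p = 0.000796). In bulk cultures, fewer cells that make a transcript and less of it per cell cannot be told apart. An antisense gene on the other strand, *AU022754*, shares exonic bases with *Wnt7b* and held 2.57% to 15% of the joint counts of both genes. Antisense genes also overlap *Wnt5a*, *Lef1* and *Axin2*, with at most 4.91%, 4.71% and 3.19% of the joint counts of each pair. The strand setting of the counting is not given in the sources used here.

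*Wnt5a* moved the other way after a first dip (ENSMUSG00000021994, chr14:28504750-28527448, plus strand). Its levels were 124, 108 and 111 CPM in NSPs, 87.1, 76.1 and 87.2 CPM at 24 h, 144, 156 and 145 CPM at 72 h, and 216, 219 and 226 CPM at 1 week. None of these 4 conditions overlapped with another, and the order was 24 h, NSPs, 72 h, 1 week. *Wnt5a* fell by 0.45 on the log2 scale at 24 h against NSPs (adjusted p = 0.00835) and was then higher at 72 h than at 24 h (0.83 ± 0.13, adjusted p = 0.000159). At 1 week it was 1.93-fold above NSPs (0.95 ± 0.13, adjusted p = 7.6e-06). The rise from NSPs to 72 h was small (0.38 ± 0.13, adjusted p = 0.021) and was lost when NSP replicate 2, NSP replicate 3 or 72 h replicate 2 was left out (0.34, 0.36 and 0.34, adjusted p = 0.0768, 0.0641 and 0.0735) or with no filter on low counts (0.35, adjusted p = 0.067). That from 72 h to 1 week (0.57 ± 0.13, adjusted p = 0.0128) just missed the threshold without replicate 3 of 72 h or of 1 week (0.55 in both, adjusted p = 0.0512 and 0.0526), and missed it with the replicate number as a block and 72 h replicate 3 unpaired (0.55, adjusted p = 0.0846).

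*Wnt7a*, the close relative of *Wnt7b*, had a transient peak (ENSMUSG00000030093, chr6:91363981-91411363, minus strand). NSPs held 46.7, 31.4 and 32.8 CPM, the 24 h libraries 71.4, 79.4 and 76.8 CPM, the 72 h libraries 22.9, 27.4 and 30.8 CPM, and the 1 week libraries 36.1, 34.1 and 32.5 CPM. All 24 h libraries without TNF were above all others, NSPs overlapped with 1 week, and 72 h lay just below both. *Wnt7a* rose 2.05-fold at 24 h (1.04 ± 0.20, adjusted p = 0.000365) and fell 2.81-fold from 24 h to 72 h (-1.49 ± 0.21, adjusted p = 3.71e-05). Neither 72 h nor 1 week differed from NSPs past the threshold (-0.45 ± 0.20, adjusted p = 0.0706, and -0.11 ± 0.20, adjusted p = 0.661). The value at 72 h ran from -0.56 to -0.25 when each library was left out in turn, lowest in size without NSP replicate 1, and it passed without NSP replicate 2 (-0.56, adjusted p = 0.0466) and with no filter on low counts (-0.47, adjusted p = 0.0198). For 1 week the approximate 95% interval of the log2 difference ran from -0.51 to 0.29. Without the 3 libraries that stood apart, *Wnt7a* was higher at 1 week than at 72 h (0.34, adjusted p = 0.0442).

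Levels of different genes can be compared only per length, so CPM was divided by kb of exon and each ligand was expressed as a share of the sum over 19 Wnt ligands. In NSPs *Wnt7b* led with 49.5% ± 4.66 of that sum, ahead of *Wnt5a* (23.2% ± 2.28) and *Wnt7a* (18.6% ± 4.74). At 24 h *Wnt7a* led with 41.5% ± 0.978, and *Wnt7b* was down to 11.4% ± 0.336. *Wnt5b*, which is no member of the list and is the closest relative of *Wnt5a*, had gone from 1.39% ± 0.223 in NSPs to 20.1% ± 1.79, a share that overlapped with the 18.6% ± 1.85 of *Wnt5a*. At 72 h *Wnt5a* (36.8% ± 2.03) and *Wnt5b* (32.5% ± 1.19) led, and at 1 week *Wnt5a* alone held 50.2% ± 1.41. The leading ligand thus passed from *Wnt7b* to *Wnt7a* to *Wnt5a* over the course. The summed level of all 19 ligands went from 62.9 ± 1.61 CPM per kb in NSPs to 57.6 ± 2.25 after 24 h, 51.8 ± 3.55 after 72 h and 56.1 ± 0.657 after 1 week.

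**Figure D2:**
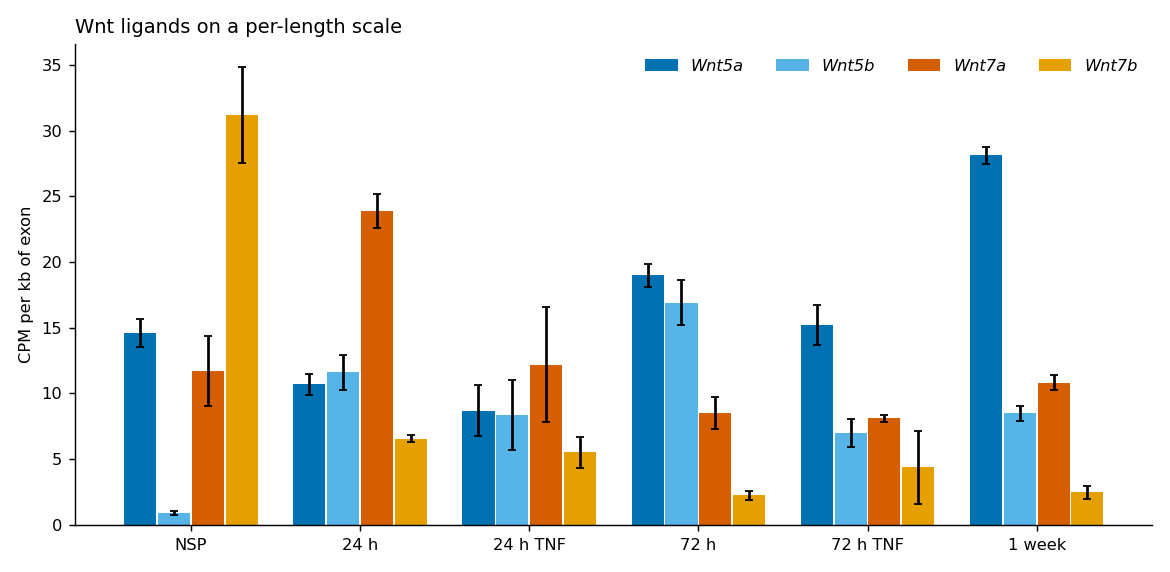
Mean level of 4 Wnt ligands in each condition, in CPM per kb of exon, so that bars can be compared between genes. Bars start at 0 and error bars are SDs over 3 libraries. *Wnt7b* is highest in NSPs (31.2 CPM per kb), *Wnt7a* at 24 h (23.9) and *Wnt5a* at 1 week (28.1).

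*Fzd1*, which encodes a Frizzled receptor, had a narrow range of levels (ENSMUSG00000044674, chr5:4753839-4758035, minus strand). Its levels were 35.4, 21.6 and 23.3 CPM in NSPs, 26.8, 29.1 and 26.1 CPM at 24 h, 14.8, 18.7 and 19.6 CPM at 72 h, and 24.7, 19.6 and 22 CPM at 1 week. The 72 h libraries lay below those of NSPs and of 24 h, the 1 week libraries lay below those of 24 h, and NSPs overlapped with both 24 h and 1 week. At 72 h it was 1.51-fold below NSPs (-0.59 ± 0.22, adjusted p = 0.0268), a difference that was -0.34 (adjusted p = 0.186) without NSP replicate 1, which stood apart, and -0.48 (adjusted p = 0.113) without 72 h replicate 1. It also missed with the block and 72 h replicate 3 unpaired (-0.65, adjusted p = 0.0539). With all 3 libraries that stood apart left out it passed (-0.35, adjusted p = 0.0421). Against 24 h it was 1.54-fold lower (-0.62 ± 0.22, adjusted p = 0.0424). This missed the threshold when any 1 of the 6 libraries was left out (-0.71 to -0.51) or with either block (-0.63 and -0.68, adjusted p = 0.0525 and 0.1). It passed without the 3 that stood apart (-0.61 ± 0.12, adjusted p = 0.000976). None of those 3 is in this comparison, so the difference stayed and the standard error fell.

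The nuclear factors *Lef1* and *Tcf7* were changed in opposite directions by 1 week. *Lef1* (ENSMUSG00000027985, chr3:131110471-131224356, plus strand) was at 4.44, 4.45 and 4.38 CPM in NSPs, 6.12, 4.64 and 7.50 CPM at 24 h, 2.65, 3.25 and 1.43 CPM at 72 h and 1.06, 1.64 and 0.704 CPM at 1 week. *Tcf7* (ENSMUSG00000000782, chr11:52252371-52283014, minus strand) was at 1.78, 1.26 and 1.37 CPM in NSPs, 2.95, 4.19 and 3.83 CPM at 24 h, 4.31, 3.68 and 2.42 CPM at 72 h and 6.18, 6.08 and 5.35 CPM at 1 week. For both genes the NSP and 1 week libraries did not overlap. At 24 h all 3 *Lef1* libraries were above the NSPs (0.45 ± 0.45, adjusted p = 0.407) and at 72 h all were below (-0.86 ± 0.47, adjusted p = 0.127), with neither past the threshold. The latter passed without the 3 libraries that stood apart (-0.87, adjusted p = 0.0360). *Lef1* fell 3.83-fold from NSPs to 1 week (-1.94 ± 0.50, adjusted p = 0.00279), from 70 to 81 counts per library to 10 to 30. Its fall from 24 h to 72 h (-1.32 ± 0.47, adjusted p = 0.0471) missed the threshold when any 1 of the 6 libraries was left out (-1.59 to -1.03), with at least 10 counts in every library (-1.32, adjusted p = 0.0562) or with the block and 72 h replicate 3 unpaired (-1.18, adjusted p = 0.138), and passed without those 3 (-1.30, adjusted p = 0.00299). *Tcf7* rose 2.50-fold at 24 h (1.32 ± 0.35, adjusted p = 0.00435), 2.35-fold at 72 h (1.23 ± 0.35, adjusted p = 0.00617) and 4.01-fold at 1 week (2.00 ± 0.34, adjusted p = 6.75e-05) against NSPs. Its 24 h and 72 h levels overlapped. The difference between 72 h and 1 week (0.77 ± 0.32, adjusted p = 0.182) passed only without the 3 libraries that stood apart, among the alternatives run (0.78, adjusted p = 0.0169).

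The feedback targets *Axin2* and *Nkd1* were both highest in NSPs. *Axin2* (ENSMUSG00000000142, chr11:108920349-108950783, plus strand) was at 54.0, 66.4 and 65.1 CPM in NSPs, 37.3, 33.3 and 43.3 CPM at 24 h, 41.9, 43.1 and 39.6 CPM at 72 h and 26.6, 29.6 and 24.9 CPM at 1 week. Its libraries formed 3 levels that did not overlap, with NSPs above 24 h and 72 h together and these above 1 week. It fell 1.63-fold at 24 h (-0.71 ± 0.13, adjusted p = 0.00025), 1.49-fold at 72 h (-0.58 ± 0.13, adjusted p = 0.00115) and 2.29-fold at 1 week (-1.19 ± 0.13, adjusted p = 4.61e-07). The further step from 72 h to 1 week (-0.62 ± 0.13, adjusted p = 0.0076) just missed the threshold without 1 week replicate 3 (-0.56, adjusted p = 0.051). *Axin2* and *Wnt5a* were the 2 members called between 72 h and 1 week, and without that library neither was.

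*Nkd1* (ENSMUSG00000031661, chr8:88521354-88594884, plus strand) fell further than *Axin2*. NSPs held 26.3, 31.7 and 28.5 CPM, the 24 h libraries 8.16, 9.73 and 12.5 CPM, the 72 h libraries 4.69, 4.48 and 4.84 CPM and the 1 week libraries 5.03, 5.32 and 3.24 CPM. NSPs were above 24 h and 24 h above 72 h without overlap, while 72 h and 1 week overlapped. The fall against NSPs was 2.85-fold at 24 h (-1.51 ± 0.21, adjusted p = 1.05e-05), 6.17-fold at 72 h (-2.62 ± 0.22, adjusted p = 1.18e-08) and 6.31-fold at 1 week (-2.66 ± 0.22, adjusted p = 8.34e-09). Between 72 h and 1 week the difference was -0.03 on the log2 scale, with an approximate 95% interval from -0.47 to 0.41.

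The secreted inhibitor *Sfrp1* rose late (ENSMUSG00000031548, chr8:23411502-23449632, plus strand). It was at 18.5, 13.6 and 11.3 CPM in NSPs, 11, 12.5 and 11.9 CPM at 24 h, 26.3, 27.7 and 32.7 CPM at 72 h and 51.1, 50.2 and 50.2 CPM at 1 week. NSPs and 24 h overlapped, and 72 h and 1 week were each above all earlier libraries. It rose 2.01-fold from NSPs to 72 h (1.01 ± 0.25, adjusted p = 0.00196) and 3.50-fold to 1 week (1.81 ± 0.25, adjusted p = 5.61e-06). From 24 h to 72 h the rise was 2.46-fold (1.30 ± 0.25, adjusted p = 0.000839). The difference between 72 h and 1 week (0.80 ± 0.24, adjusted p = 0.0524) just missed the threshold here. It passed under 6 alternatives, among them DESeq2 (adjusted p = 0.0242), the fit to only the groups compared (0.00145) and the fit without the 3 libraries that stood apart (0.80, adjusted p = 5.49e-05), and it missed with RLE scaling, with either replicate block and with any 1 library left out (0.0531 to 0.183). *Dkk3* (ENSMUSG00000030772, chr7:112116017-112159057, minus strand) had 2 to 12 counts in each of the 18 libraries, or 0.113 to 0.696 CPM, and its conditions overlapped. It did not pass the filter on low counts. In 19 alternatives it was tested in some or all comparisons and was called in none of them (lowest adjusted p 0.173).

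**Figure D3:**
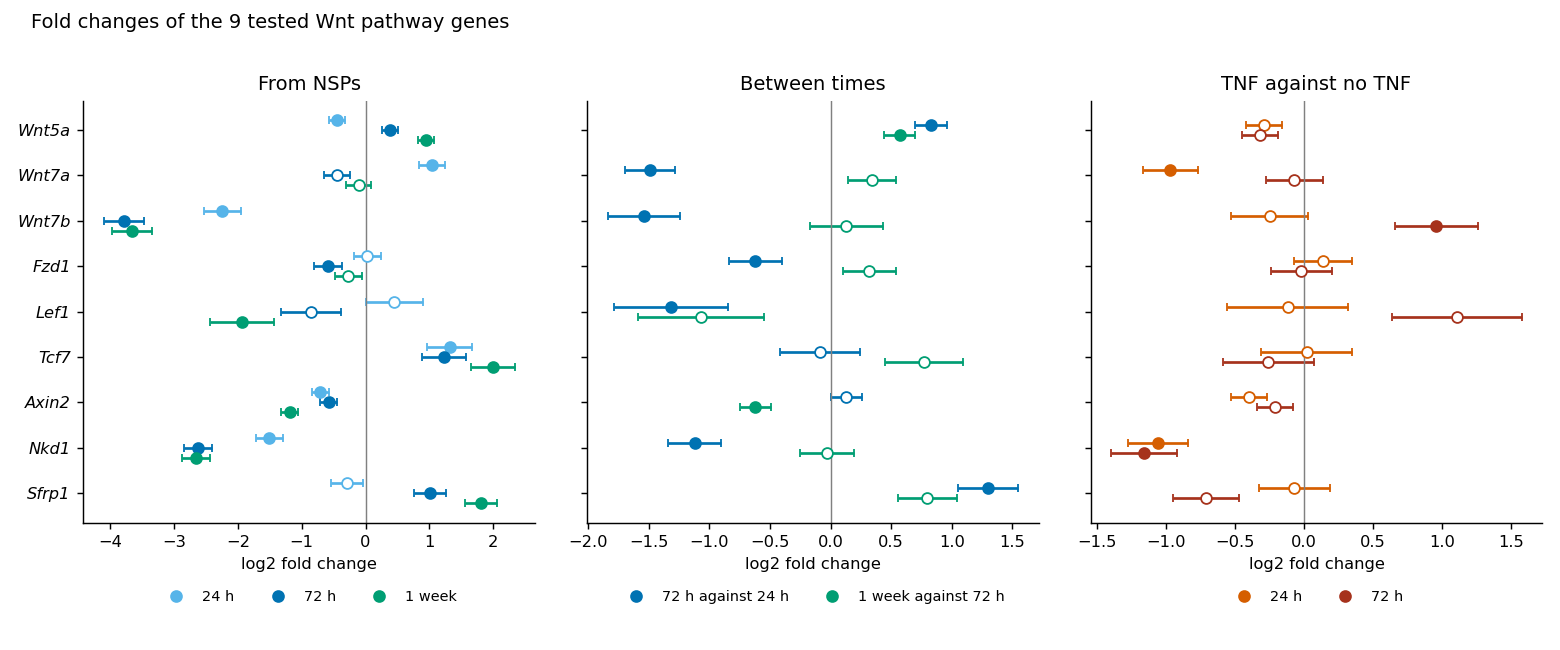
log2 fold changes of the 9 tested genes with their standard errors, against NSPs (left), between times without TNF (middle) and with TNF against without (right). Filled points passed an adjusted p of 0.05 and open points did not. *Wnt7b*, *Nkd1* and *Axin2* lie left of 0 at all times against NSPs, *Tcf7* lies right of it, and *Nkd1* is the only gene filled at both times under TNF.

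With TNF, 2 of the 9 tested members differed from untreated cells at 24 h, both lower (*Wnt7a* and *Nkd1*), where 3.5% of all genes were called. At 72 h 2 differed, *Nkd1* lower and *Wnt7b* higher, where 9.56% were called. The median log2 fold change of the members was -0.25 at 24 h and -0.21 at 72 h, beside -0.01 over all genes at both times. The untreated cultures of these comparisons are the same libraries as in the time course.

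*Nkd1* was lower with TNF at both times. At 24 h the treated cultures held 4.09, 4.4 and 6.01 CPM against 8.16, 9.73 and 12.5 CPM without TNF, and at 72 h 2.65, 1.74 and 1.88 CPM against 4.69, 4.48 and 4.84 CPM. Treated and untreated libraries did not overlap at either time. The difference was 2.09-fold at 24 h (-1.06 ± 0.22, adjusted p = 0.0087) and 2.23-fold at 72 h (-1.16 ± 0.24, adjusted p = 0.00377). That at 72 h passed the threshold with each of its 6 libraries left out in turn (-1.36 to -1.04). That at 24 h missed it without 24 h replicate 3 (-0.90, adjusted p = 0.0604) and passed when any other of its libraries was left out. Without the libraries that stood apart the values were -0.96 at 24 h (adjusted p = 0.0113) and -1.36 at 72 h (adjusted p = 0.00163). Astrocyte markers also moved with TNF. Their sum was 4880 to 6200 CPM with TNF against 5320 to 5790 CPM without at 24 h, and 3490 to 4890 CPM against 5700 to 8150 CPM at 72 h. Of the 8 tested, *Aldoc* was lower at 24 h (-0.65, adjusted p = 0.0417), and *Gfap* (-2.31, adjusted p = 0.0128), *S100b* (-1.64, adjusted p = 1.66e-05) and *Aldoc* (-1.57, adjusted p = 1.31e-05) were lower at 72 h. Their part in the members' TNF differences was not tested.

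*Wnt7a* was lower with TNF at 24 h, the time of its peak in untreated cells. The treated cultures held 23.8, 40.5 and 51.5 CPM against 71.4, 79.4 and 76.8 CPM without TNF, with no overlap and with the lowest value in replicate 1, which stood apart. The difference was 1.97-fold (-0.97 ± 0.20, adjusted p = 0.00922). It was -0.74 (adjusted p = 0.017) without that replicate, and it missed the threshold when only these 6 libraries were fitted (-0.97, adjusted p = 0.0509). At 72 h treated cultures held 26.1, 24.8 and 26.3 CPM, within the range of the untreated ones. The log2 difference was -0.07, with an approximate 95% interval from -0.48 to 0.33. The change of the TNF effect between the times (0.90 ± 0.29, adjusted p = 0.238) did not pass the threshold, nor did that of any other member, where 0.458% of all genes were called. At an unadjusted p of 0.05, 2 members passed in that test, *Wnt7a* and *Wnt7b*, beside 2018 of all 20067 tested genes. DESeq2 called no member after adjustment, whereas the fit with no filter on low counts called both (0.92 and 1.22, adjusted p = 0.0143 and 0.000132).

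The higher *Wnt7b* at 72 h with TNF rested on 1 library. The treated cultures held 37.1, 12.1 and 15 CPM against 10.3, 12.9 and 9.80 CPM, so that the groups overlapped and replicate 1 was far above the others. The log2 fold change was 0.96 ± 0.30 (adjusted p = 0.0471) with that library and 0.30 (adjusted p = 0.432) without it. It also missed the threshold without untreated replicate 1, 2 or 3 (0.91, 1.09 and 0.88, adjusted p = 0.0798, 0.0849 and 0.186), with only the groups compared (1.0, adjusted p = 0.132) and with either block (0.89 and 0.80, adjusted p = 0.0677 and 0.241). *Lef1* had the same form, with 10.7, 3.19 and 1.81 CPM against 2.65, 3.25 and 1.43 CPM, and was not called (1.11 ± 0.47, adjusted p = 0.144, and 0.05 without replicate 1), although it passed without replicate 3 of the TNF group (1.51, adjusted p = 0.0318) and with no filter on low counts (1.13, adjusted p = 0.00248). The same library differed in other genes as well. The list of 6 oligodendrocyte-lineage genes, of which *Sox10*, *Mbp* and *Mog* averaged under 1 CPM, summed to 80.7 CPM there, to 24.4 and 28.5 CPM in the other treated cultures and to 14.5 to 18.8 CPM in the untreated ones, most of it *Cspg4*. The 5 mural-cell genes summed to 54.9 CPM there against 188 and 204 CPM in the other treated cultures and 197 to 294 CPM in the untreated ones. Nearly all of that was *Acta2* (49.2 against 186 and 202 CPM), whereas *Rgs5* (4.56 against 2.09 and 1.56 CPM) and *Des* (1.07 against 0.058 and 0.125 CPM) were higher there. The part of these differences in the level of *Wnt7b* was not tested.

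The other members did not pass the threshold with TNF. *Sfrp1* at 72 h was at 10.4, 22.6 and 20.1 CPM with TNF against 26.3, 27.7 and 32.7 CPM without, with no overlap (-0.71 ± 0.24, adjusted p = 0.075). It passed with no filter on low counts (-0.70, adjusted p = 0.00491). DESeq2 put it just past the threshold (adjusted p = 0.0494), and so did leaving out the libraries that stood apart, with a smaller difference (-0.43, adjusted p = 0.0309), or TNF replicate 2 alone (-0.93, adjusted p = 0.0442). *Axin2* at 24 h was at 31.1, 26.2 and 29.1 CPM with TNF against 37.3, 33.3 and 43.3 CPM, again with no overlap (-0.40 ± 0.13, adjusted p = 0.137). *Wnt5a* had log2 differences of -0.29 ± 0.13 at 24 h (adjusted p = 0.332) and -0.32 ± 0.13 at 72 h (adjusted p = 0.137). Without the libraries that stood apart, *Axin2* and *Wnt5a* also passed at 24 h (-0.47 and -0.51, adjusted p = 0.0454 and 0.0025), which made 4 members called there instead of 2. *Wnt5a* passed there also without TNF replicate 1 alone (-0.51, adjusted p = 0.0257). *Fzd1* at 24 h ranged from 19.3 to 38.0 CPM with TNF and *Tcf7* from 1.51 to 4.92 CPM, both with the lowest value in replicate 1, and both overlapped with the untreated cultures.

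**Figure D4:**
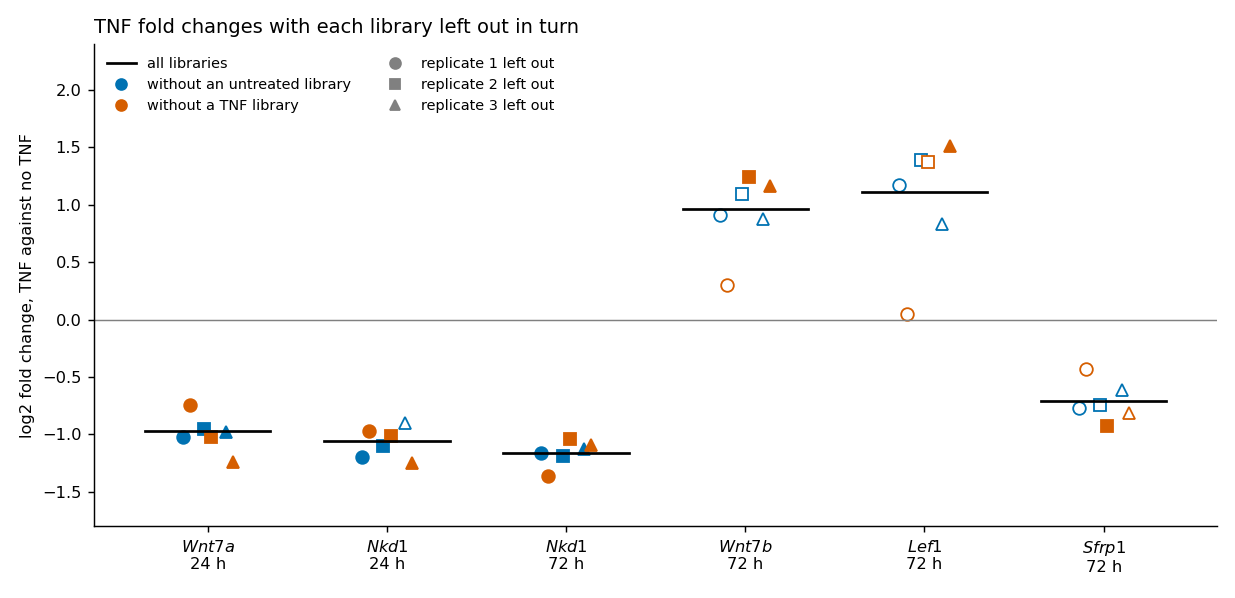
log2 fold change of TNF against no TNF for 5 genes at the time shown, with all libraries (black bar) and with each of the 6 libraries left out in turn (points, colour for the group and shape for the replicate left out). Filled points passed an adjusted p of 0.05 and open points did not. *Nkd1* stays between -1.36 and -0.90, whereas *Wnt7b* and *Lef1* at 72 h drop to 0.30 and 0.05 without replicate 1 of the TNF group.

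The share of the ligand sum held by each ligand was also set side by side under TNF. At 24 h *Wnt7a* held 29.7% ± 8.03 with TNF (20.4% to 34.9% in single libraries) against 41.5% ± 0.978 without. The summed level of the 19 ligands at 24 h was 40.4 ± 5.35 CPM per kb with TNF against 57.6 ± 2.25 without. The sums at 72 h were 44.0 ± 1.88 and 51.8 ± 3.55 CPM per kb. At 72 h *Wnt5a* led with and without TNF (34.6% ± 4.41 and 36.8% ± 2.03), and *Wnt5b* held 15.9% ± 2.32 with TNF against 32.5% ± 1.19 without. *Wnt5b* itself fell with TNF at 72 h (-1.27 ± 0.19, adjusted p = 0.00026), from 44.8 ± 4.53 to 18.6 ± 2.80 CPM.

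Of 104 further Wnt pathway genes listed by role, 83 were tested. Among the 21 not tested were *Wnt1*, *Wnt3a* and the inhibitor genes *Dkk1*, *Dkk2* and *Sost*. At 24 h against NSPs 35 rose and 27 fell, at 72 h 28 rose and 32 fell, and at 1 week 24 rose and 30 fell. These 62, 60 and 54 genes stand beside 52.7%, 55.3% and 58.6% of all genes called. All 9 planar polarity genes rose at 24 h, where 27.2% of all genes were higher, and at 1 week 6 were higher and 1 lower than in NSPs. Of 9 tested inhibitor genes 7 fell by 1 week, where 29.1% of all genes were lower. None of them rose, where 29.6% of all genes were higher, so that the rise of *Sfrp1* had no counterpart among them in that comparison. Of 14 tested common target genes, 3 rose and 7 fell at 1 week.

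At 24 h the named genes with the largest rise against NSPs were *Wif1*, an inhibitor that binds ligands (3.62 to 54.9 CPM, log2 fold change 3.92 ± 0.56), *Wnt5b* (3.72 ± 0.23), *Daam2*, which acts with Dishevelled (3.29 ± 0.29), and *Wnt9a* (2.61 ± 0.37). *Wif1* was at 1.02 ± 0.589 CPM again at 72 h (-5.69 ± 0.65 against 24 h), and of the members *Wnt7a* likewise peaked at 24 h. The largest falls at 24 h were in the corepressor gene *Tle2* (-4.26 ± 0.33), the receptor gene *Fzd9* (-4.09 ± 0.28), the cyclin gene *Ccnd1* (-4.09 ± 0.43) and *Igfbp4* (-3.55 ± 0.37). At 1 week *Fzd9* had gone from 148 to 0.550 CPM (-8.10 ± 0.36), and *Lgr5*, an R-spondin receptor gene and a known target, from 28.0 to 0.588 CPM (-5.60 ± 0.27). These genes all passed the threshold, with adjusted p-values of 1.51e-05 or less.

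With TNF at 24 h, 6 of these 83 genes were called, 2 higher and 4 lower, where 3.5% of all genes were. *Ror1*, a receptor for WNT5A, rose (1.06 ± 0.18, adjusted p = 0.00167), and *Draxin* (-1.61 ± 0.34, adjusted p = 0.0102), *Apcdd1* (-1.51 ± 0.33, adjusted p = 0.0122), *Celsr1* (-1.0 ± 0.26, adjusted p = 0.037) and *Prickle2* (-0.93 ± 0.14, adjusted p = 0.000711) fell. *Draxin* and *Apcdd1* encode inhibitors, and *Celsr1* and *Prickle2* belong to planar polarity. A further inhibitor gene, *Sfrp2*, a relative of *Sfrp1* named after its values were seen, was higher, at 1.39, 0.597 and 0.59 CPM against 0, 0.112 and 0.163 CPM (adjusted p = 0.0251). At 72 h 15 were called, 7 higher and 8 lower, where 9.56% of all genes were. *Ror1* was again higher (0.78 ± 0.18, adjusted p = 0.00695), as were *Ccnd1* (1.34 ± 0.41, adjusted p = 0.0429), *Wnt6* (1.32 ± 0.37, adjusted p = 0.0307) and *Tle1* (0.82 ± 0.22, adjusted p = 0.0218), and *Sostdc1* (-1.41 ± 0.33, adjusted p = 0.00978), *Fzd8* (-0.71 ± 0.21, adjusted p = 0.0424) and *Prickle2* (-0.66 ± 0.14, adjusted p = 0.00566) were lower. *Sfrp2* was again higher, at 0.732, 0.406 and 0.375 CPM against 0, 0 and 0.11 CPM (adjusted p = 0.0245), and the inhibitor gene *Kremen1*, likewise named after its values were seen, was lower (-0.56 ± 0.13, adjusted p = 0.00909). Without the libraries that stood apart, 5 of the 83 genes rose and 7 fell with TNF at 24 h, and at 72 h 9 rose and 11 fell. Of the genes named here for TNF, *Wnt6* was then lost (1.04, adjusted p = 0.0979), and *Tle1* and *Fzd8* passed with smaller differences (0.48 and -0.43).

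**Figure D5:**
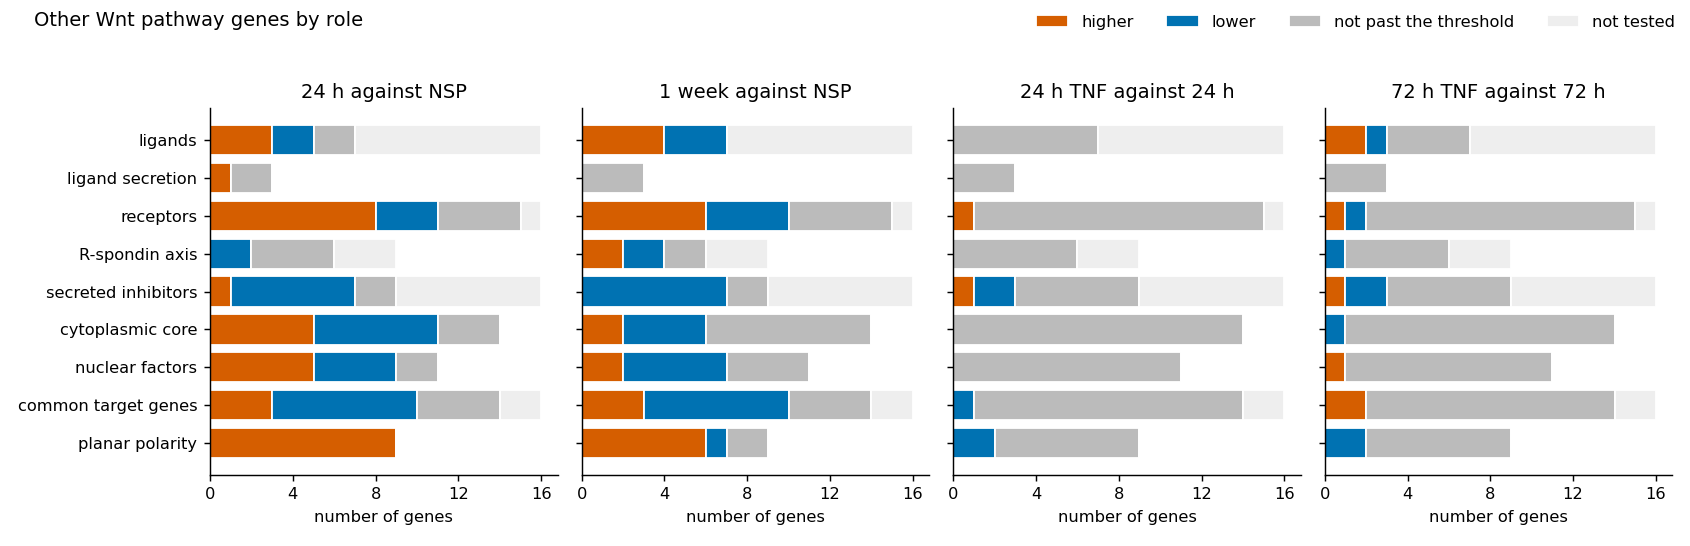
Number of genes of the wider Wnt list in each role that were higher, lower, not past an adjusted p of 0.05 or not tested, in 4 comparisons. Some genes, such as *Lgr5*, stand in more than 1 role. All 9 planar polarity genes are higher at 24 h than in NSPs, as were 27.2% of all genes, and far fewer genes are called with TNF than on differentiation.

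Across the 18 libraries, *Sfrp1* and *Wnt5a* had similar profiles (Pearson r of log2 CPM 0.87), as did *Nkd1* and *Wnt7b* (0.82), and *Sfrp1* and *Lef1* were opposed (-0.91). *Nkd1* and *Axin2* had an r of 0.70. Outside the list, the genes most like *Axin2* were *Plpp3* (0.944), *Kif19a* (0.909), *Ift140* (0.907), *Zkscan17* (0.903) and *Hist4h4* (0.903). Those most like *Wnt7a* were *Kctd17* (0.937), *Mtor* (0.930), *Mtfr1l* (0.927), *Cnnm4* (0.924) and *Ywhaz* (0.916), and those most like *Sfrp1* were *Lmo7* (0.969), *Adamts17* (0.949), *Pip4k2a* (0.949), *Reep5* (0.947) and *Fgfrl1* (0.945). These correlations share the same 6 conditions and depth and describe the libraries, with no test.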

How the data were processed

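RNA was sequenced from 18 mouse cultures in 6 conditions, 3 replicates each. The authors depleted ribosomal RNA, made stranded libraries, trimmed reads with Trim Galore, aligned them with STAR to mm10 and counted them per gene with featureCounts, per the paper's methods and the submitters' processing notes. The deposited values are raw counts. Strand setting, handling of shared reads and RNA quality per library are not given in the sources used here. RNA quality numbers ranged from 3.4 to 10, per the labels.

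From the counts, edgeR 4.0.16 (limma 3.58.1, R 4.3.3) computed TMM factors and fitted its quasi-likelihood test to all 18 libraries, with 1 mean for each condition, on 20067 genes kept by its filter. P-values were adjusted after Benjamini and Hochberg, and 0.05 was the threshold. DESeq2 1.42.0 was an alternative. The procedure was tested on simulated data. Levels are TMM-scaled CPM, and exon lengths and positions are from GENCODE M21 (GRCm38). Motifs and figures used Python 3.11.15, numpy 2.4.6, pandas 2.3.3 and matplotlib 3.10.9. One column name carries the number 4 and was taken as 72 h replicate 3, the only sample of that condition it could be. All columns were used.

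The members, the wider list and the marker lists were chosen with earlier results of these data known. The text names every member. From the wider list it names at most 4 called genes a direction, taken by size of change among those that average 1 CPM or more and whose groups do not overlap. Replicate numbers were not treated as pairs.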

Additional observations from a re-analysis of the deposited data

How the results depend on the processing

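No member's fold change with an unadjusted p under 0.05 changed direction under any alternative, and most calls were kept. Against NSPs, 6 members were called at 24 h, 6 to 7 at 72 h and 7 at 1 week when each library was left out in turn, and 5 between 24 h and 72 h, where *Fzd1* and *Lef1* were lost each time. Between 72 h and 1 week, where 2 members were called, the count was 4 with no filter on low counts and 0 to 2 with a library left out. With TNF at 24 h, where 2 were called, it was 1 when only the groups compared were fitted and 1 to 3 with a library left out. With TNF at 72 h, where 2 were called, it was 4 with no filter, 1 with only the groups compared and 1 to 3 with a library left out. For the change of the TNF effect, where 0 were called, it was 2 with no filter. The cause of these shifts was not tested.

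Leaving out the 3 libraries that stood apart, an alternative chosen after seeing the data, gave 5 members between 72 h and 1 week and 4 with TNF at 24 h. The number of all genes called was 3224 (from 1331) and 1277 (from 703) in these comparisons, where 3 fewer libraries entered the fit.

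With the replicate block, in which the number is a term of the fit, 1 member was called with TNF at 72 h, as *Wnt7b* was lost (0.89, adjusted p = 0.0677), and *Fzd1* was lost between 24 h and 72 h (-0.63, adjusted p = 0.0525). It changed no other member's call. With 72 h replicate 3 unpaired in that block, 1 member was called between 72 h and 1 week and 1 with TNF at 72 h. Whether replicates of the same number share more than that number is not given. Correlations of their deviations ran from -0.42 to 0.30 and in 0 of the comparisons checked were above 0.1 for every pair. The TNF groups were not set against each other or against NSPs. The check therefore cannot show whether the libraries that stood apart have a shared origin. Of the 21 same-number pairs, 10 had their highest correlation with their own number.

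For genes at the level of *Dkk3* (2 to 12 counts), depth limits what can be seen. All-gene counts moved by over 1.5 times in these cases. With no filter, 2032 genes were called between 72 h and 1 week, 1374 with TNF at 24 h and 554 for the change of the TNF effect. With only the groups compared these were 2001 between 72 h and 1 week, 1277 with TNF at 72 h and 38 for the change of effect. DESeq2 gave 246 for the change of effect, against 92, at least 10 counts in every library gave 56, and leaving out the 3 libraries gave 348. With the block and 72 h replicate 3 unpaired, 3286 were called between 24 h and 72 h, 617 between 72 h and 1 week, 986 with TNF at 72 h and 24 for the change of effect. With a library left out the counts ran from 610 to 1373 between 72 h and 1 week, 360 to 741 with TNF at 24 h, 965 to 2922 with TNF at 72 h and 25 to 133 for the change of effect.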
